A study of Mus musculus with 3 samples.

Results

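The comparison set 20(OH)D3 against 25(OH)D3, a pair of hydroxylated derivatives of vitamin D3, in RNA of mouse inguinal lymph nodes. It describes every gene locus of the deposited table that averaged at least 1 FPKM over the 3 libraries and held at least 20 summed normalized counts. FPKM divide fragments by the length of the transcript and the size of the library, and normalized counts are reads multiplied by 1 factor per library. Of 46951 loci in the table, 13428 met both conditions. A further 604 reached the FPKM minimum but not the count minimum. All mice were male C57BL/6j animals that had received the contact sensitizer dinitrofluorobenzene (DNFB) painted on the abdomen. From 3 days later they were injected intraperitoneally, the vehicle group with ethanol and the other groups with 1 of the compounds at 4 µg/kg per day, the same for each. Per the sample labels the injections ran for 4 consecutive days and nodes were taken 24 hours after the last one, while the series description gives 1 week of treatment. Each group is 1 library, and whether it came from 1 animal or several is not given. Every value therefore describes these libraries, no difference has a replicate check, and no test was made.

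The compounds differ in the side-chain carbon that carries the hydroxyl group. 25(OH)D3 is the circulating form of vitamin D, made in the liver and activated by the 1-alpha-hydroxylase Cyp27b1 before it binds the vitamin D receptor (Vdr) with high affinity. 20(OH)D3 is a product of the steroid side-chain cleavage enzyme Cyp11a1 acting on vitamin D3, and is studied for effects on skin and immune cells. The vitamin D receptor pairs with the retinoid X receptors and drives its own inactivating enzyme, the 24-hydroxylase Cyp24a1.

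The libraries held 8226431 reads with vehicle, 7522550 with 20(OH)D3 and 7991748 with 25(OH)D3. Values given in sets of 3 are always in that order. Lymph node messages were present in each library, with the B cell receptor gene Cd79a at 656, 715 and 743 FPKM, the T cell receptor gene Cd3e at 112, 79.2 and 136 FPKM, and Glycam1, a mucin of high endothelial venules, at 517, 456 and 450 FPKM. The T-zone chemokine genes had few reads, 25, 11 and 17 for Ccl19 and 2, 0 and 1 for Ccl21a. Both have another copy in the table, listed at 0, and copies can exchange or lose reads. Nodes lie in fat, and the level of fat cell genes differed between the libraries. The 22 white adipocyte genes summed to 2942, 12134 and 5525 FPKM. In whole tissue, fewer cells of a type and less RNA per cell cannot be told apart.

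Most loci lay close together with the 2 compounds. The log2 ratio of 20(OH)D3 to 25(OH)D3 had a median of -0.03 on FPKM (with 1 FPKM added) and -0.02 on normalized counts (with 10 added). By counts 84.9% of loci lay within 0.5 of 0, 47.3% were above 0 and 52.7% below, the shares against which the gene lists are read. A locus was called 2-fold different only where both scales passed. By that rule 206 loci (1.53%) reached a 2-fold higher value with 20(OH)D3 and 28 (0.209%) a 2-fold lower one. FPKM alone gave 303 higher (2.26%) and 81 lower (0.603%), and counts alone 272 higher (2.03%) and 46 lower (0.343%). Just inside the threshold, within 0.1 log2 units, were 60 higher and 11 lower loci, and just outside it 69 and 20.

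**Figure D1:**
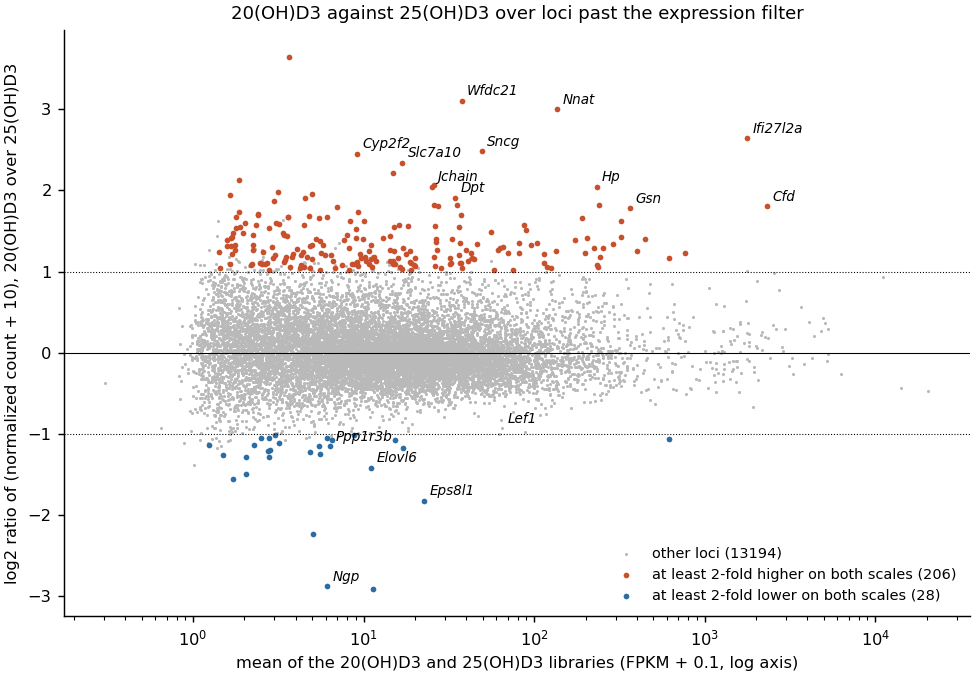
Log2 ratio of (normalized count + 10), 20(OH)D3 over 25(OH)D3 (y axis), against the mean of both compound libraries in FPKM plus 0.1 (x axis, log scale), 1 point per locus. The 206 loci at least 2-fold higher on both scales spread over the whole range of expression, whereas all but 1 of the 28 lower loci lie below 100 FPKM.

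Most lower calls were at low expression. Eligible to be named were 8268 single-gene loci with an established gene name. They average at least 5 FPKM and sum to at least 100 normalized counts in the 2 compound libraries. Predicted or clone-named models are not among them. Of the 8268, 105 were called higher on both scales and 5 lower. Over all loci past the filter, by the mean of all 3 libraries, 50 were higher and 0 lower in the 20 to 100 FPKM range. Above 100 FPKM 24 were higher and 1 lower, the predicted gene Gm37376 (684, 393 and 843 FPKM). Gm37376 is listed at the same coordinates as the noncoding RNA gene Malat1 (630, 293 and 657 FPKM). The log2 ratio of Malat1 was -1.16 by FPKM and -0.59 by counts, so it was not called. Of the 206 higher loci 164 were named genes, 11 immunoglobulin or T cell receptor segments and 27 predicted or clone-named models. Of the 28 lower loci 17 were named genes.

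**Figure D2:**
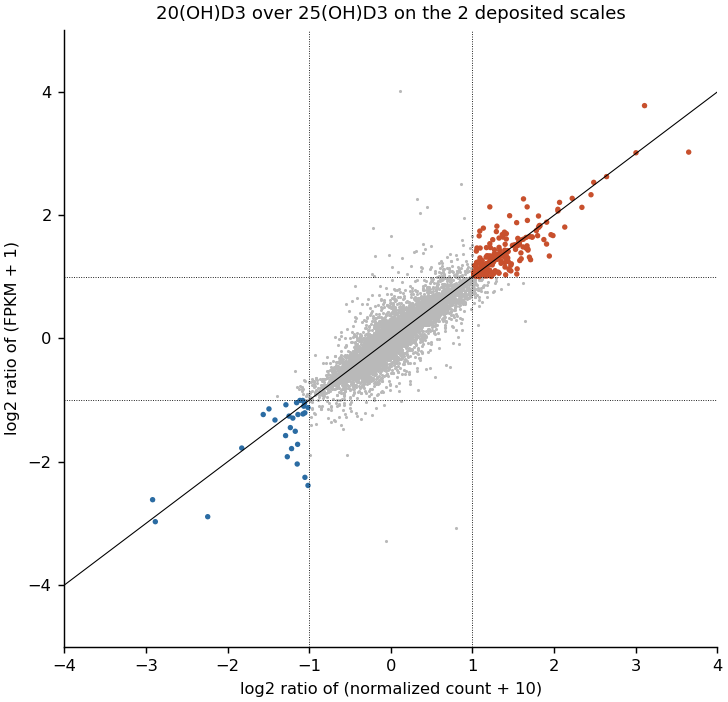
Log2 ratio of (FPKM + 1) (y axis) against log2 ratio of (normalized count + 10) (x axis), 20(OH)D3 over 25(OH)D3, for the 13428 loci, with the line of equality and dotted lines at 2-fold. Coloured points passed on both scales, and 97 higher and 53 lower loci passed on FPKM alone, where sharing of fragments among isoforms can set the value.

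The genes furthest above with 20(OH)D3 came from several functional groups, among them fat, interferon response and secreted proteins. Wfdc21, a small secreted whey acidic protein family member, (GRCm38 chromosome 11, 83746940 to 83752642) stood at 1.72, 70.7 and 4.23 FPKM on 4, 147 and 9 reads, a normalized count ratio of 17.0 (95% exact interval 8.73 to 38.0, counting error only, as for all intervals here). Nnat, an imprinted gene for a membrane proteolipid (GRCm38 chromosome 2, 157556362 to 157571274), stood at 41.7, 242 and 29.1 FPKM, giving a count ratio of 8.28 (7.28 to 9.45). Ifi27l2a, an interferon-stimulated gene (chromosome 12, 103442167 to 103443680), stood at 386, 3057 and 495 FPKM, giving a count ratio of 6.29 (5.91 to 6.69). In these 3 genes the 20(OH)D3 library alone was high, and the 25(OH)D3 library lay nearer to the vehicle.

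Sncg, the gamma-synuclein gene, stood at 19.5, 84.3 and 13.7 FPKM, giving a count ratio of 6.18 (4.86 to 7.94), Cyp2f2 at 4.28, 15.8 and 2.34 FPKM, and Slc7a10, an amino acid transporter of fat and brain, at 8.16, 27.9 and 5.61 FPKM. Each of these was lower with 25(OH)D3 than with vehicle. Haptoglobin, Hp, the plasma haemoglobin binder, stood at 56.6, 376 and 88.8 FPKM, giving a count ratio of 4.17 (3.87 to 4.49). Tst, a mitochondrial thiosulfate sulfurtransferase, stood at 7.54, 55.2 and 14.8 FPKM.
The rest of the 15 highest were Jchain, Dpt, Scand1, Apol6, Wfdc17, Cfd and Gsn, with count ratios from 3.45 for Gsn to 4.45 for Jchain. Gsn, the actin-severing protein gelsolin, stood at 171, 565 and 167 FPKM, and Scand1 at 96.8, 377 and 106 FPKM. For both, vehicle and 25(OH)D3 were close together and 20(OH)D3 was over 3-fold above them.

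**Figure D3:**
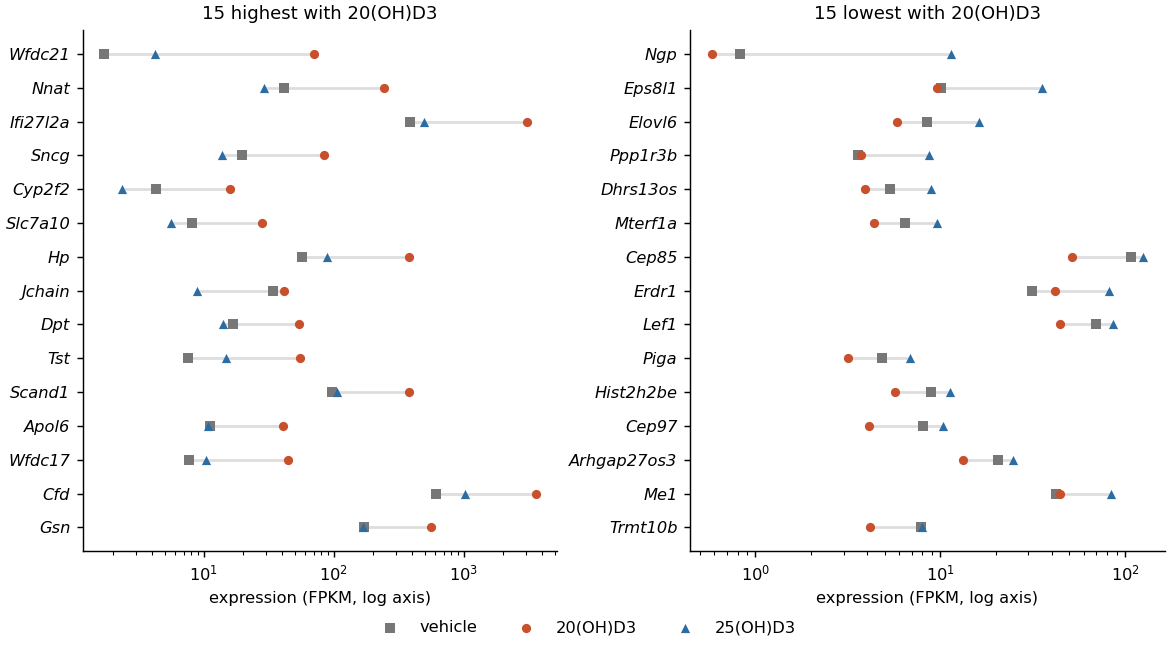
Expression in FPKM (x axis, log scale) of the 15 highest and the 15 lowest named genes of the comparison in the vehicle (square), 20(OH)D3 (circle) and 25(OH)D3 (triangle) libraries, 1 library each. On the left the circle is far to the right of both other symbols in all but Jchain, and on the right the triangle is the rightmost symbol in each row.

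The named genes furthest below with 20(OH)D3 were fewer and closer to the other libraries. Ngp, a neutrophil granule protein gene (chromosome 9, 110419747 to 110423012), stood at 0.829, 0.580 and 11.4 FPKM on 8, 5 and 102 reads, 19.6-fold lower (8.11 to 61.5) by counts. Eps8l1, an actin-regulating adaptor of the Eps8 family (chromosome 7, 4424770 to 4480487), stood at 10.1, 9.63 and 35.4 FPKM, 3.69-fold lower (3.11 to 4.39). Elovl6, the elongase of palmitate (chromosome 3, 129527467 to 129638495), stood at 8.47, 5.86 and 16.1 FPKM, 2.73-fold lower (2.38 to 3.14). Ppp1r3b, a glycogen-targeting subunit of protein phosphatase, stood at 3.57, 3.73 and 8.73 FPKM, 2.32-fold lower (1.88 to 2.87). In Eps8l1 and Ppp1r3b the vehicle and 20(OH)D3 libraries were alike and 25(OH)D3 was high. Dhrs13os, the antisense RNA of Dhrs13, was the last one past 2-fold on both scales (5.37, 3.91 and 8.86 FPKM), and since strand use in counting is not given its reads cannot be told from those of the sense gene. The other 10 of the lowest 15 missed 2-fold on at least 1 scale. Among them the T cell transcription factor Lef1 stood at 70.0, 44.6 and 85.6 FPKM, 1.92-fold lower (1.76 to 2.09), and the centrosomal genes Cep85 (108, 51.3 and 125 FPKM) and Cep97 (8.02, 4.12 and 10.3 FPKM) were 1.98-fold and 1.84-fold lower by counts.

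The receptor and enzymes of the vitamin D pathway gave little to compare. Vdr had 34, 24 and 16 reads (0.873, 0.690 and 0.494 FPKM) and was below the expression minimum. Cyp24a1 had 0, 4 and 0 reads and Cyp27b1 3, 4 and 0. Of the 9 receptor, coregulator and enzyme genes past the filter none was 2-fold apart. The retinoid X receptor gene Rxra stood at 22.9, 25.1 and 17.2 FPKM, giving a count ratio of 1.47 (1.33 to 1.62), and the 25-hydroxylase gene Cyp2r1 at 2.85, 1.70 and 1.32 FPKM on 27, 12 and 11 reads.
Of 24 textbook vitamin D target genes 15 passed the filter, with a median log2 count ratio of 0.17. Cebpb (16.8, 56.1 and 22.99 FPKM) passed 2-fold upward with 20(OH)D3, and the cathelicidin gene Camp (3, 2 and 47 reads) passed it downward. Camp responds to vitamin D in humans and is not known to do so in mice, and it is also a neutrophil granule gene. The remaining 13 were within 2-fold, among them Thbd, thrombomodulin (7.78, 9.18 and 5.78 FPKM), and Cdkn1a (18.9, 16.3 and 17.9 FPKM).

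White adipocyte genes were the list furthest above with 20(OH)D3. All 22 passed the filter, 22 were above 0 by counts (47.3% of all loci were), 10 were at least 2-fold higher on both scales, and the median log2 count ratio was 1.03. Adipsin, Cfd, stood at 607, 3591 and 1031 FPKM, giving a count ratio of 3.51 (3.41 to 3.61), and the lipid droplet genes Plin4 (16.5, 57.0 and 17.4 FPKM) and Cidec (64.4, 289 and 92.1 FPKM) had ratios of 3.27 (3.03 to 3.54) and 3.17 (2.97 to 3.39). These ratios were uneven among adipocyte genes. Leptin, Lep, at 4.72, 13.1 and 4.70 FPKM, was no higher with 25(OH)D3 than with vehicle. The fatty acid carrier Fabp4 (877, 3461 and 2007 FPKM) and lipoprotein lipase Lpl (137, 448 and 259 FPKM) were 1.71-fold and 1.73-fold higher with 20(OH)D3, the adipogenic receptor Pparg (6.60, 31.7 and 20.0 FPKM) 1.61-fold, and Lpin1 (13.7, 17.2 and 17.0 FPKM) 1.011-fold (0.915 to 1.12). The C/EBP factors Cebpa (32.8, 115 and 47.4 FPKM), Cebpb and Cebpd (10.3, 21.6 and 8.34 FPKM) had ratios of 2.56, 2.45 and 2.45, so 3 of the 4 family members past the filter were at least 2-fold higher, against 1.53% of all loci. The family was not among the lists.

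Other genes of fat did not follow the white adipocyte list. Of 12 brown and beige adipocyte genes 8 passed, 3 of them above 0 by counts, with a median of -0.10. Ucp1, the uncoupling protein, stood at 12.4, 44.3 and 44.8 FPKM, giving a count ratio of 0.993 (0.880 to 1.12), while Cidea stood at 28.4, 77.0 and 125 FPKM and was lower with 20(OH)D3. Both compound libraries were above vehicle for Ucp1 and Cidea.
Fatty acid synthesis genes had a median of -0.17, with 11 of 18 below 0 by counts (52.7% of all loci were). Along the pathway from citrate, Slc25a1 (74.97, 97.1 and 150 FPKM), Acly (105, 88.8 and 164 FPKM), Acaca (16.3, 17.6 and 25.4 FPKM), Fasn (413, 460 and 850 FPKM) and Elovl6 were all lower with 20(OH)D3, as was malic enzyme Me1 (42.3, 44.5 and 83.7 FPKM), a source of NADPH. By counts Fasn was 1.36-fold lower (1.33 to 1.40), less than its FPKM. The genes that place fatty acids on glycerol went the opposite way, with Dgat1 at 33.9, 78.3 and 49.0 FPKM, Dgat2 at 66.1, 144 and 99.8 FPKM and Gpam at 5.96, 6.66 and 3.17 FPKM, giving a count ratio of 2.11 (1.65 to 2.705). For Acly, Acaca, Fasn and Me1 the vehicle and 20(OH)D3 libraries were close together by FPKM and 25(OH)D3 was high. By reads this did not hold for Acly (2652, 1875 and 2942), where vehicle was nearer to 25(OH)D3.

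**Figure D4:**
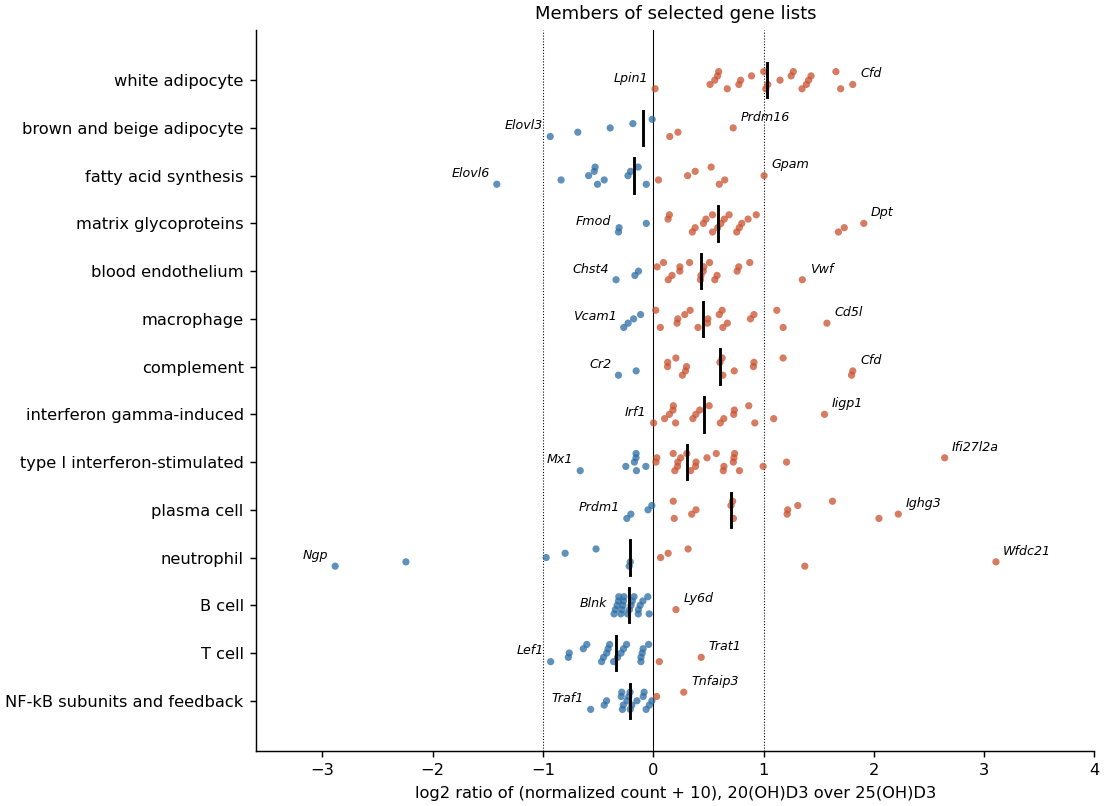
Log2 ratio of (normalized count + 10), 20(OH)D3 over 25(OH)D3 (x axis), of the members past the filter of 14 gene lists, 1 point per locus, with the list median as a black bar and dotted lines at 2-fold. Points are red above 0 and blue below, and the lowest and highest member of each list are named; white adipocyte genes all lie above 0, while all but 1 B cell gene lie below.

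Connective tissue and vessel genes were mostly higher with 20(OH)D3, by less than 2-fold. Of 23 matrix proteoglycan and glycoprotein genes past the filter 20 were above 0 by counts, with a median of 0.58. Dermatopontin, Dpt, stood at 16.8, 54.4 and 14.0 FPKM, giving a count ratio of 3.90 (3.31 to 4.61), lumican, Lum, at 3.07, 14.4 and 3.92 FPKM and osteoglycin, Ogn, at 2.42, 5.62 and 1.42 FPKM, and these 3 were at least 2-fold higher. Biglycan, Bgn (222, 197 and 256 FPKM), and fibromodulin, Fmod (19.9, 15.2 and 19.1 FPKM), were below 0. Collagens had a median of 0.36, with 13 of 16 above 0 and none at least 2-fold higher, and matrix proteases and inhibitors 0.41, with 18 of 19 above 0.
Blood endothelial genes had a median of 0.43, with 18 of 21 above 0. Vwf, von Willebrand factor, stood at 7.96, 9.33 and 4.90 FPKM, Cldn5, a tight junction claudin, at 29.5, 34.5 and 19.9 FPKM, and Gpihbp1, the capillary anchor of lipoprotein lipase, at 19.4, 46.9 and 26.4 FPKM. Of the high endothelial venule genes, Glycam1 was level between the compounds, with a count ratio of 1.02 (0.957 to 1.10), and Chst4 stood at 6.85, 5.68 and 7.24 FPKM. Lymphatic genes had a median of 0.46, led by Mmrn1 (2.18, 3.71 and 0.888 FPKM), with Lyve1, the hyaluronan receptor, at 21.8, 29.6 and 17.8 FPKM. For Vwf, Cldn5, Mmrn1 and Lyve1 vehicle lay between the compounds, whereas for Gpihbp1 vehicle was lowest. Between the compounds the adipocyte sums moved the same way as the matrix and vessel lists. With 20(OH)D3 against vehicle the median log2 count ratios of these lists were all above 0. With 25(OH)D3 against vehicle they were 0.66 for white adipocyte genes, 0.11 for collagens and 0.06 for matrix proteases. They were -0.08 for matrix proteoglycans and glycoproteins, -0.14 for blood endothelial and -0.37 for lymphatic genes. The part of the adipocyte sums in the result was not tested.

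Macrophage and complement genes were higher with 20(OH)D3. Of 22 macrophage markers past the filter 18 were above 0 by counts, with a median of 0.45. Cd5l, a secreted scavenger protein of tissue macrophages, stood at 10.5, 24.2 and 7.75 FPKM, giving a count ratio of 3.14 (2.55 to 3.88), and the complement subunit C1qb at 144, 337 and 149 FPKM, giving a count ratio of 2.27 (2.12 to 2.44). Siglec1, the sialoadhesin of subcapsular sinus macrophages, stood at 22.7, 24.5 and 13.3 FPKM and Adgre1, F4/80, at 3.20, 6.10 and 2.65 FPKM. Vcam1 (67.9, 62.0 and 74.1 FPKM) and the red pulp factor Spic (23.3, 18.3 and 23.6 FPKM) were below 0.
Complement genes had a median of 0.60 by counts and 0.31 by FPKM. C4b stood at 67.5, 128 and 76.2 FPKM, while C3 was level by FPKM (551, 559 and 584 FPKM) and had a count ratio of 1.23 (1.20 to 1.27), and complement receptor Cr2 (99.9, 77.1 and 126 FPKM) was below 0. Cfd stands in both the adipocyte and the complement list. The monocyte chemokine Ccl8 stood at 123, 358 and 147 FPKM, giving a count ratio of 2.47 (2.203 to 2.78), the one chemokine at least 2-fold higher of 25 past the filter.

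Neutrophil genes split in opposite directions on few reads. Wfdc21 and Prtn3, proteinase 3 (10, 45 and 12 reads), were called higher with 20(OH)D3, and the granule genes Ngp and Camp were called lower. Lcn2 (4, 10 and 30 reads), S100a8 (9, 58 and 91) and S100a9 (24, 56 and 109) were lower with 20(OH)D3 than with 25(OH)D3 and above vehicle with both. The receptor genes Csf3r (153, 142 and 141 reads) and Cxcr2 (209, 147 and 180 reads) had many more reads and smaller differences. The list median was -0.21 by counts and -0.41 by FPKM.

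Interferon-induced genes were higher with 20(OH)D3 in most members. Interferon gamma-induced genes, which include the immunity-related and guanylate-binding GTPases, had a median of 0.46, and 18 of 18 loci past the filter were above 0 by counts. The GTPase Iigp1 stood at 21.6, 54.0 and 18.2 FPKM, giving a count ratio of 2.98 (2.67 to 3.33), the locus shared by Gbp6 and Gbp10 at 11.97, 20.6 and 8.99 FPKM, and Gbp2 at 43.4, 70.3 and 42.2 FPKM. The transcription factor Irf1 (99.1, 108 and 109 FPKM) had a ratio of 1.00 (0.937 to 1.07). Ifng itself had 2, 2 and 12 reads and was below the expression minimum.
Type I interferon-stimulated genes had a median of 0.30, with 22 of 29 above 0. Ifi44 (6.19, 8.34 and 3.33 FPKM) was at least 2-fold higher beside Ifi27l2a, and Isg15, the ubiquitin-like modifier, stood at 28.6, 41.0 and 19.7 FPKM, a count ratio of 2.10 (1.64 to 2.703) that missed the call with 10 counts added. Bst2, tetherin, stood at 102, 156 and 93.9 FPKM and Oas1a, an oligoadenylate synthase, at 6.64, 9.91 and 5.72 FPKM. Mx1 (15.6, 11.4 and 18.3 FPKM) and Mx2 (6.89, 5.09 and 8.51 FPKM) were lower, Mx2 with a count ratio of 0.820 (0.573 to 1.17).

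Interferon genes are known for a promoter element bound by interferon-activated factors, and the promoters of members from both ends of the ratios are shown for that reason. The letters GAAA, then any 2 bases, then GAAA again, on either strand, occur in the 300 bases around the start site (250 before, 50 after) of 3.99% of 27025 genes in the RefSeq promoter table (GRCm38.p6). They occur in 10 of 19 type I members past the filter that have an entry (52.6%), in 11 of 15 interferon gamma members (73.3%), and in 0 of 15 T cell and 0 of 16 white adipocyte members. The interferon lists hold known interferon genes, so their shares do not describe the difference between the compounds. Of the 124 loci at least 2-fold higher with an entry 9 held the letters (7.26%), and of the 15 lower ones 1 (6.67%). Capitals mark every match, and matches may overlap each other. The first 4 are the members with a match and the highest count ratios, then the member with a match and the lowest ratio (Ddx58, 45.7, 36.4 and 42.7 FPKM), then the member without a match and the highest ratio. These ranks are among members with a promoter entry, and the promoter of Ifi27l2a was not analysed here.
Isg15, chr4:156200769-156201068 (-): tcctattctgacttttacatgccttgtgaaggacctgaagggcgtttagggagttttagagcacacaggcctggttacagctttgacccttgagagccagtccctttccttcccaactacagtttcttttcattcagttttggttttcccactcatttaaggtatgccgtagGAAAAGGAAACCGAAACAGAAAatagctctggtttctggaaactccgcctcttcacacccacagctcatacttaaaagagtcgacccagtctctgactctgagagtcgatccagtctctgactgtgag
Gbp2, chr3:142620413-142620712 (+): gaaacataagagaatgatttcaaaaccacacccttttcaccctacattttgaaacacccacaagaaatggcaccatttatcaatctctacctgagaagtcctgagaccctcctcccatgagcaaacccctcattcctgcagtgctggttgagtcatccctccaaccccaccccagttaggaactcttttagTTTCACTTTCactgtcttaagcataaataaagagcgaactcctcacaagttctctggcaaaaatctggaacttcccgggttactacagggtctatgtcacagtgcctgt
Oas1a, chr5:120907476-120907775 (-): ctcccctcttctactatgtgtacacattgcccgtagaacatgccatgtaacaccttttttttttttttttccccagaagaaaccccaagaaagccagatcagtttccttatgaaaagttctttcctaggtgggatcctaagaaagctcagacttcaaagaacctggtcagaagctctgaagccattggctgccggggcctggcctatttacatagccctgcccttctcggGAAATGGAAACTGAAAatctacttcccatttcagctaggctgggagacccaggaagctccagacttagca
Bst2, chr8:71537423-71537722 (-): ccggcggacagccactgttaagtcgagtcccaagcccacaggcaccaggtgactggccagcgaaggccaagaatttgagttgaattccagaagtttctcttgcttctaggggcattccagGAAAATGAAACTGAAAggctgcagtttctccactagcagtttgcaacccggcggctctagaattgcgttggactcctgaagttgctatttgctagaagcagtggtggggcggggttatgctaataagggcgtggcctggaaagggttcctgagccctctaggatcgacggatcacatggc
Ddx58, chr4:40239776-40240075 (-): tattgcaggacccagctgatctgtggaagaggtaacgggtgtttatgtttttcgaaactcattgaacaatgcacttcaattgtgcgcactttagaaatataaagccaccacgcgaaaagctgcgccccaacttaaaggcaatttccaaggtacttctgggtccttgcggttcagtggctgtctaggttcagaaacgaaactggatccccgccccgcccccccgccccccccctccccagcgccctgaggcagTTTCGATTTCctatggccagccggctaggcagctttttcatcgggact
Ifi44, chr3:151749861-151750160 (-): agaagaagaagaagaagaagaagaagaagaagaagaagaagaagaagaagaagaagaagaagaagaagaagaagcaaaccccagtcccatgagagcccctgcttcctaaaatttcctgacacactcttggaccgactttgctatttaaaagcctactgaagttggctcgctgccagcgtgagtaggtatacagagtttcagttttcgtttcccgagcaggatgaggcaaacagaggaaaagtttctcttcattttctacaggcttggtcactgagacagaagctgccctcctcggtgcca
The leftmost match begins 78 bases before the start site in Isg15, 59 in Gbp2, 20 in Oas1a and 130 in Bst2, and lies just past the start site in Ddx58. A match is a description of the letters and not a binding site. The letters GGTCA, any 3 bases and GGTCA again, on either strand, occur in 0.0703% of genes of the table. They occur in 0 of the 124 loci at least 2-fold higher with an entry, 0 of the 15 lower ones and 0 of 11 textbook target genes. This says only that these letters are not in these windows. They are spaced more closely than the repeat bound by the vitamin D receptor, so the counts do not describe that repeat.

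Secreted antibody genes were higher with 20(OH)D3, and their order against vehicle differed by isotype. Of 17 plasma cell genes past the filter 13 were above 0 by counts (47.3% of all loci were), and the median was 0.70 (0.54 by FPKM). Among the 17, 6 were at least 2-fold higher (1.53% of all loci were), namely Jchain and immunoglobulin constant region genes. Jchain, which joins IgM and IgA polymers, stood at 33.8, 41.2 and 8.87 FPKM, giving a count ratio of 4.45 (3.56 to 5.59), with vehicle close to 20(OH)D3. Ighg3 stood at 6.82, 25.1 and 4.39 FPKM and Ighg2b at 10.2, 26.4 and 8.84 FPKM, with 20(OH)D3 alone high. Ighg1 stood at 80.5, 17.1 and 2.76 FPKM on 773, 150 and 44 reads, and Ighe at 12.3, 2.65 and 0.490 FPKM on 135, 26 and 5 reads, with vehicle highest and 25(OH)D3 lowest. The count ratio was 5.74 (3.96 to 8.53) for Ighg3, 3.56 (2.53 to 5.10) for Ighg1 and 5.42 (2.05 to 18.1) for Ighe. Constant region genes are near-identical in places and can exchange reads.
Other plasma cell genes differed less. Xbp1 stood at 73.6, 98.2 and 79.8 FPKM, with a count ratio of 1.28 (1.18 to 1.38). Sdc1 (72, 84 and 49 reads) and Derl3 (45, 56 and 32 reads) had count ratios of 1.79 (1.24 to 2.60) and 1.82 (1.16 to 2.91). Mzb1 (56.9, 66.3 and 58.6 FPKM), Prdm1 (1.61, 1.63 and 1.71 FPKM), Edem2 and Txndc5 had intervals holding 1. The constant regions of naive B cells, Ighm (1401, 1210 and 1387 FPKM) and Ighd (943, 786 and 989 FPKM), were 1.15-fold and 1.26-fold lower with 20(OH)D3.

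Lymphocyte genes were lower with 20(OH)D3 by small amounts that ran through almost every member. T cell genes had a median of -0.34, with 20 of 22 below 0 by counts (52.7% of all loci were) and 17 with a count interval below a ratio of 1, as had 21.8% of all loci. Cd3e was 1.71-fold lower (1.57 to 1.87), the T cell receptor constant gene Trac (518, 405 and 624 FPKM) 1.55-fold and Tcf7, partner of Lef1 (220, 155 and 236 FPKM), 1.52-fold. Cd3d, beside Cd3e on chromosome 9, stood at 91.8, 81.2 and 96.6 FPKM, only 1.18-fold lower, and Cd28 and Trat1 were not lower.
B cell genes had a median of -0.22, with 21 of 22 below 0 by counts. Blnk was lowest by counts (61.8, 52.5 and 64.6 FPKM) and Cr2 by FPKM, and Ly6d was the one above (317, 424 and 370 FPKM). Genes of NF-kB subunits and feedback had a median of -0.21, with 18 of 20 below 0. Traf1 was lowest (86.7, 66.3 and 105 FPKM) and the inhibitor Tnfaip3 highest (22.9, 25.8 and 18.9 FPKM). Migratory dendritic cell genes had a median of -0.21, with 15 of 19 below 0, among them the actin-bundling Fscn1 (282, 231 and 323 FPKM) and Apol7c (127, 88.5 and 142 FPKM). Each scale expresses a gene as a portion of its library, in which the adipocyte sum with 20(OH)D3 was over 2-fold that with 25(OH)D3, and its part in these differences was not tested.

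**Figure D5:**
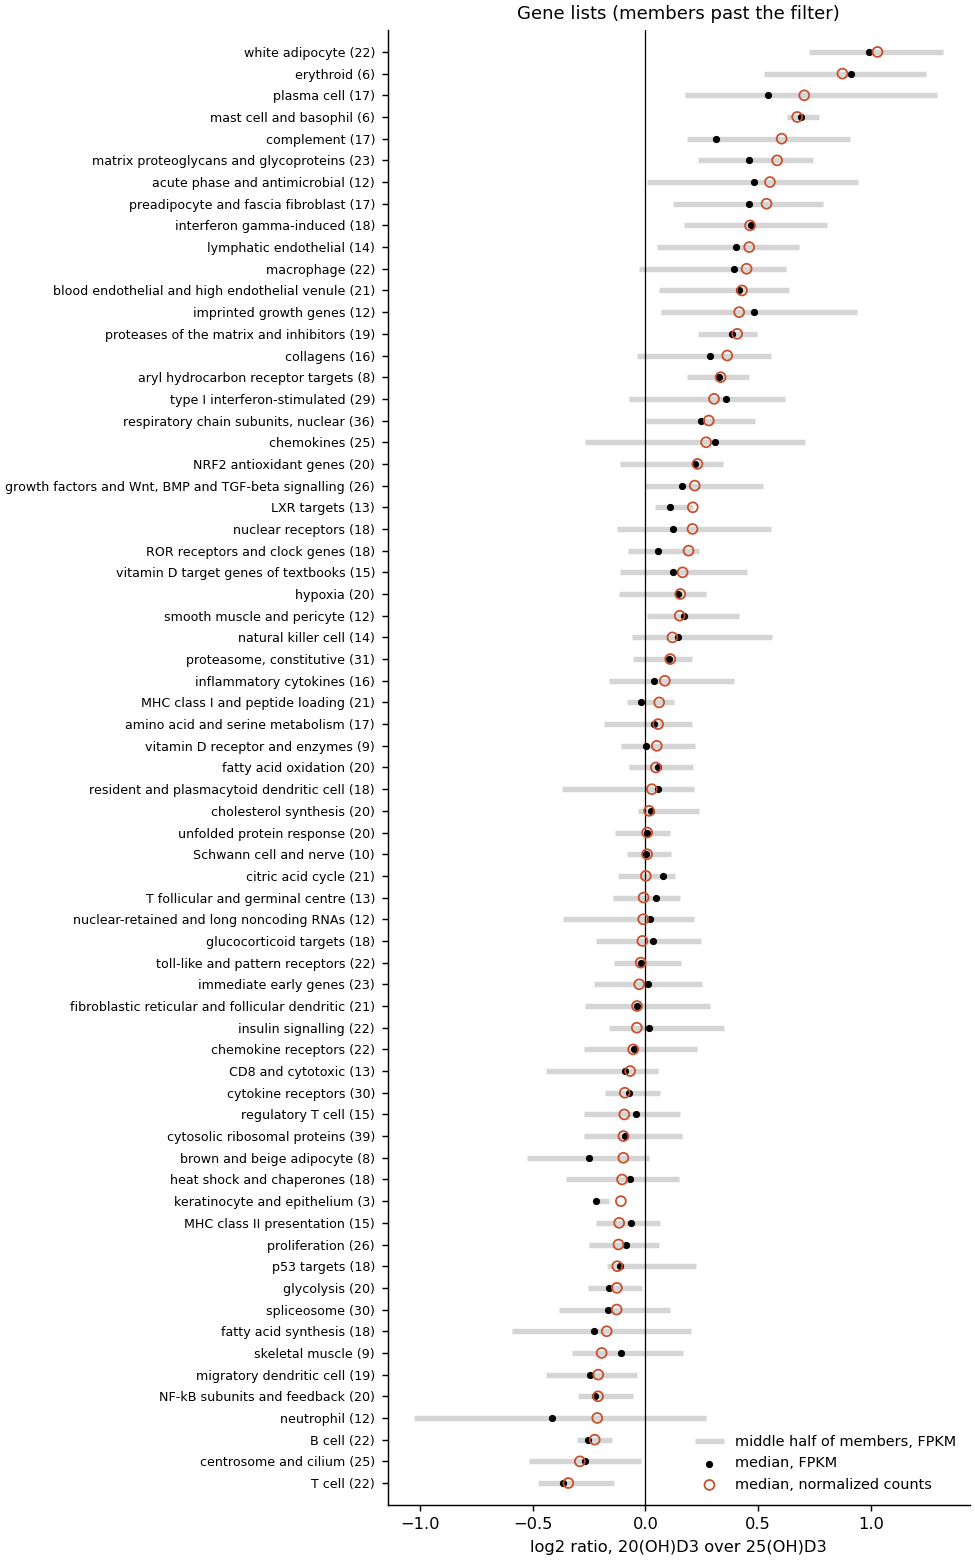
Median log2 ratio, 20(OH)D3 over 25(OH)D3 (x axis), of 67 gene lists on FPKM (black) and normalized counts (open circles), with the interquartile range of members on FPKM (grey) and the number past the filter in brackets. White adipocyte, erythroid and plasma cell lists are at the top and T cell, centrosome and B cell lists at the bottom, between 1.03 and -0.34 by counts.

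Of the 67 lists 38 had medians above 0 on both scales, 23 below 0, and 6 differed in sign between scales. Erythroid genes had a median of 0.87 over 6 of 12 members past the filter, with the globin gene Hbb-bs at 22.5, 90.5 and 35.7 FPKM and the haem synthesis gene Alas2 at 16, 43 and 5 reads. Mast cell genes had a median of 0.67 over 6 of 16, with the protease Mcpt4 at 24.3, 25.5 and 11.95 FPKM. For Mcpt4 the vehicle library was at the level of 20(OH)D3. Kit (236, 164 and 238 reads) was the 1 member of the 6 below 0, with a count ratio of 0.719 (0.585 to 0.880).
Among natural killer genes, Gzma (9.29, 23.2 and 6.86 FPKM) and Ncr1 (29, 42 and 15 reads) were at least 2-fold higher and the list median was 0.12. The CD8 and cytotoxic list, which also holds Gzma, was near level, with 8 of 13 below 0 by counts (52.7% of all loci were) and a median of -0.07. Its members Cd8a (116, 83.6 and 122 FPKM) and Nkg7 (104, 96.4 and 131 FPKM) were lower. Prf1 and Gzmb had count ratios of 0.973 and 1.13, with intervals holding 1. Interleukin 10, Il10, had 10, 23 and 6 reads.
Nuclear respiratory chain genes had a median of 0.28, with 27 of 36 above 0. Cox6c stood at 225, 861 and 370 FPKM and was the one member at least 2-fold higher, whereas Sdha (104, 106 and 130 FPKM) and Cox5b (213, 354 and 344 FPKM) had count ratios of 1.00 and 0.958, with intervals holding 1. The listed ribosomal protein genes had a median of -0.10 and spread widely around it, with 22 of 39 below 0 (52.7% of all loci were). Of these, Rpl39 (431, 1071 and 461 FPKM) was the one at least 2-fold higher, a ratio of 2.35 (2.22 to 2.49), with Rpl38 at 1.98 (1.89 to 2.08). The larger family of 61 loci with Rpl and Rps symbols had a median of 0.08, with 37 above 0 and 24 below, so neither direction held for ribosomal protein genes. Glycolysis genes had 15 of 20 below 0 and a median of -0.13. Tpi1 was the highest of the 5 above 0 (57.5, 119 and 69.5 FPKM).

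Growth factor and aryl hydrocarbon receptor genes leaned higher with 20(OH)D3, with few members called. Nuclear receptor genes were more evenly split, and insulin signalling genes were level. Of 26 growth factor genes past the filter 22 were above 0 by counts, with a median of 0.22. Igf2, an imprinted growth factor, had 21, 39 and 7 reads, Fgf10, a fibroblast-made epithelial growth factor, had 35, 130 and 40 reads, and Ctgf, a matrix-associated target of TGF-beta, had 44, 48 and 14 reads. All 3 were called higher, while Tgfb1 stood at 144.5, 122 and 130.2 FPKM. The insulin signalling list had a median of -0.04. Gsk3a (74.4, 67.8 and 91.1 FPKM) was the lowest of the list.
Of 18 nuclear receptor genes past the filter 10 were above 0 by counts and 8 below, with a median of 0.21 by counts and 0.12 by FPKM. Among them, the mineralocorticoid receptor gene Nr3c2 had 37, 55 and 15 reads and was called higher. The clock repressor Nr1d1 stood at 15.7, 28.6 and 16.3 FPKM, with a count ratio of 1.73 (1.52 to 1.97), and Rora, a receptor reported to bind hydroxylated vitamin D compounds, at 1.84, 2.55 and 1.37 FPKM, with a count ratio of 1.67 (1.34 to 2.11). The clock gene Cry1 (8.70, 5.15 and 8.05 FPKM) was lower with 20(OH)D3. The aryl hydrocarbon receptor gene Ahr stood at 4.03, 4.08 and 3.17 FPKM, and its target Cyp1b1 at 17.8, 21.1 and 14.98 FPKM, with a count ratio of 1.41 (1.27 to 1.56). The list holds Ahr itself and Arnt besides targets. Of its 8 members past the filter 6 were above 0 and the median was 0.33. Among them 6 count intervals, that of Ahr included, lay above a ratio of 1 (19.3% of all loci). The highest was Nqo1, a quinone reductase, on 12, 29 and 10 reads, with a count ratio of 3.02 (1.43 to 6.96), and 0 members were called on both scales. The listed genes Cyp1a1 (9, 9 and 5 reads) and Ahrr (40, 16 and 23 reads) were below the expression minimum.

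Centrosome genes leaned lower with 20(OH)D3, and chaperone and cell cycle genes did so by less. Of 18 chaperone genes past the filter 11 were below 0 by counts (52.7% of all loci were), with a median of -0.10. The heat shock factor Hsf1 stood at 27.4, 20.8 and 31.4 FPKM and the co-chaperone Chordc1 at 37.8, 25.7 and 39.4 FPKM, while the small heat shock protein gene Hspb8 (2.50, 12.1 and 5.32 FPKM) was called higher with a count ratio of 2.28 (1.73 to 3.04). Of 26 proliferation genes 19 were below 0, with a median of -0.12. Only 5 of the 26 had a count interval below a ratio of 1, as had 21.8% of all loci. Ccnb2, cyclin B2, stood at 8.87, 4.26 and 7.34 FPKM and Mki67 at 10.4, 6.79 and 8.24 FPKM, whereas Pcna was level (71.7, 83.2 and 79.6 FPKM). Of 25 centrosome and cilium genes 22 were below 0, with a median of -0.29, and 12 had a count interval below a ratio of 1. Besides Cep85 and Cep97, the cilium transport gene Ift80 stood at 13.6, 9.69 and 16.6 FPKM, and Tubgcp2, of the gamma-tubulin complex, was the highest (12.3, 11.6 and 9.22 FPKM).

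Antigen presentation and regulatory T cell genes were close together with the compounds. Among 15 MHC class II genes 11 were below 0, with a median of -0.12, but H2-Oa (174.7, 246 and 181 FPKM) and the class II beta chain H2-Ab1 (1641, 1940 and 1628 FPKM) were above it, with count ratios of 1.35 (1.26 to 1.45) and 1.29 (1.26 to 1.32). Their transactivator Ciita stood at 35.9, 32.6 and 28.8 FPKM. The regulatory T cell factor Foxp3 stood at 16.7, 13.0 and 16.9 FPKM, with a count ratio of 0.779 (0.681 to 0.890), close to the ratios of other T cell genes, and the interleukin 2 receptor chain Il2ra at 10.4, 8.72 and 11.8 FPKM. Genes of cholesterol synthesis split evenly, with 10 above 0 and 10 below and a median of 0.02.

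Setting both compounds beside vehicle, the 20(OH)D3 library was the more distant one. Against vehicle 337 loci (2.51%) were at least 2-fold higher on both scales with 20(OH)D3 and 59 (0.439%) with 25(OH)D3, and 20 (0.149%) and 18 (0.134%) were lower. These counts share the vehicle library. Of the 206 loci at least 2-fold higher with 20(OH)D3 than with 25(OH)D3, vehicle was nearer to 25(OH)D3 by FPKM in 179 (86.9%), against 62.3% of all loci. In 109 it lay between the compounds, in 92 below both and in 5 above both. Of the 28 lower loci vehicle lay between the compounds in 25, and it was nearer to 25(OH)D3 in 13 and to 20(OH)D3 in 15.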

How the data were processed

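The RNA selection and strandedness of the libraries were not stated in the sources at hand. RNA was extracted with Trizol, per the labels' protocols. The submitters' processing notes name STAR 2.7.0c, Cufflinks 2.2.1, Cuffdiff, Cuffnorm and build GRCm38, without settings or annotation. The table deposited by the authors holds FPKM and a second value per library labelled counts, a signal equal to reads times 1 factor (0.938, 1.05 and 1.01 for vehicle, 20(OH)D3 and 25(OH)D3). Dividing by the factor gave whole numbers within 0.02 for 99.9% of values, and these are the reads given. 

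From these values, ratios were computed on log2(FPKM + 1) and log2(normalized count + 10). These understate differences of low genes. A count ratio carries an exact 95% Clopper-Pearson interval of the reads given their sum, which covers counting error only. FPKM and count values are relative to each library. With 1 library per group no model was fitted and no p-value given, and ratios were checked on simulated counts. Loci entered at a mean of 1 FPKM and 20 summed normalized counts. Named genes were the 15 highest and 15 lowest by the smaller of both log2 ratios, among named single-gene loci averaging 5 FPKM and 100 summed counts in the compound libraries, without immunoglobulin segments, pseudogenes, small RNAs and mitochondrial genes. Members of fixed gene lists were named where extreme or 2-fold apart, and others were chosen after their values were seen. The 67 lists hold 1306 symbols, of which 113 stand in several lists and 10 were not found. Members and lists were chosen with earlier results of these data known. Alternatives changed the pseudocounts, filters, scaling, scale and threshold. Python 3.11.15, pandas 2.3.3, numpy 2.4.6, SciPy 1.17.1 and matplotlib 3.10.9 were used. Some items are not reported here.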

Additional observations from a re-analysis of the deposited data

How the results depend on the processing

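With 206 loci called higher and 28 called lower with 20(OH)D3, loci called higher made up 88.0% of calls, and 78.9% to 92.4% under the alternatives. Adding 0.1 FPKM gave 44 lower loci, adding 5 FPKM 89 higher and 9 lower, and adding 1 normalized count 53 lower. A minimum of 5 FPKM left 133 higher and 11 lower, and a minimum of 100 counts 15 lower. FPKM alone called 81 lower and counts alone 46 lower. A 3-fold threshold left 32 higher and 4 lower. No filter, TPM and library totals, median of ratios, upper quartile, and rescaling without immunoglobulin, mitochondrial and small RNA genes kept both counts within 1.5 times, at 200 to 226 higher and 24 to 39 lower. Of the list values 918 kept their reading and 18 moved, and of the named genes' values 311 kept it and 47 moved. A list value kept its reading within the interquartile range of its members, and a gene's value within its count interval. A change of sign was marked only for named genes and for list medians of at least 0.3 in size. Some settings, such as FPKM alone, repeat the main value by design, so these totals do not measure robustness. Median log2 ratios of all loci stayed between -0.08 and 0.01. No paired analysis was possible because each group has 1 library. With 1 library a side, spread between animals is unknown.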

Other observations

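Genes outside the lists stood apart too, and were chosen after their values were seen. Obp1a, an odorant-binding protein gene, stood at 17.4, 48.3 and 17.3 FPKM (vehicle, 20(OH)D3 and 25(OH)D3), a count ratio of 2.82 (2.19 to 3.66), and Mucl2, a mucin-like gene, at 35.2, 67.2 and 25.3 FPKM. The secretoglobin genes Scgb1b2 and Scgb2b24 had 35, 75 and 29 reads and 21, 48 and 14 reads. Among glutathione transferase genes, Gsta3, Gstz1, Mgst1 and Mgst3 were at least 2-fold higher of 17 family members past the filter, against 1.53% of all loci. Mgst1 stood at 97.9, 417 and 162 FPKM. Cyp2e1, an ethanol-metabolizing cytochrome, stood at 132, 484 and 158 FPKM. Ubd, a ubiquitin-like protein induced by interferon gamma and TNF, stood at 45.9, 131 and 43.2 FPKM, giving a count ratio of 3.04 (2.65 to 3.49).

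Single transporter genes differed, while the family was level. Of 202 Slc transporter genes past the filter 3 were called higher and 2 lower, against 1.53% and 0.209% of all loci. Their median log2 count ratio was 0.01. Slc15a2, a peptide transporter, had 223 and 110 reads with vehicle and 20(OH)D3 and was listed at 0 with 25(OH)D3. Lower with 20(OH)D3 were the fatty acid transporter Slc27a2 (14, 16 and 65 reads), the fructose transporter Slc2a5 (27, 7 and 41 reads) and the mitotic spindle gene Dlgap5 (99, 28 and 80 reads).

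Larger gene families differed from all loci by small amounts. By counts 52.7% of all loci were below 0, with a median log2 ratio of -0.02. Of 288 Zfp zinc finger genes past the filter 189 were below 0, of 48 Ddx and Dhx helicases 36, and of 31 Cep centrosomal genes 24, with median log2 count ratios of -0.09, -0.11 and -0.22.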
